A study of Mus musculus with 6 samples.

Results

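Kidneys that had no clamp were compared, one collected at day 3 and one at day 1, to show how far they differed. They were the 2 arrays of 6 in the series whose titles give a clamp time of 0 min, and the value followed throughout is the day 3 array minus the day 1 array. Mice of all groups were males of the inbred strain FVB/N, aged 6 to 8 weeks and weighing 22 to 26 g, and the protocol given for them is pentobarbital anesthesia with flank incisions to reach the renal vessels. In the other 4 groups a unilateral clamp stopped the blood flow for 45 or 60 min (ischemia) before it was released (reperfusion), with kidneys collected on the same days. The labels' protocols list 0 min as a clamp time within the same operation. They do not say whether the 0 min kidneys were sham-operated or which kidney was taken, and these kidneys are called unclamped here only in that sense. The labels name no genetic change and no further treatment in these 6 samples. The title of the series names a blockade of the inflammatory cytokine TNFα, and kidneys given one were not analysed here.

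Each group had 1 array and the labels do not say whether 1 array held RNA of 1 animal, so a difference between the days cannot be told apart from one between 2 animals, 2 RNA samples or 2 arrays. No p-value or error between replicates could be given, and genes were called by size, at least 2-fold on the scale log2(intensity + 16). Adding 16 keeps dim genes from giving large folds by noise and makes folds of dim genes smaller than the ratio of their intensities. The median intensity was 89.7 on the day 1 array and 81.4 on the day 3 array, against 87.8 to 95.3 on the 4 clamped arrays. Signal from the 3' end over that from the 5' end of beta-actin, a ratio that rises as RNA is degraded, was 1.12 (log2) at day 1 and 0.77 at day 3. The same ratio for Gapdh was -0.23 and -0.37. The part of these ratios in the differences was not tested. Markers of kidney were bright on both unclamped arrays. Umod of the thick ascending limb stood at 35476 and 34923, the proximal phosphate transporter gene Slc34a1 at 18632 and 24355, and the androgen-regulated proximal gene Kap at 49187 and 52548. Aqp2 of the collecting duct stood at 3480 and 2726, and Slc12a3 of the distal convoluted tubule at 4880 and 4575.

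Some background helps to read the genes below. Tubule cells of an adult kidney divide rarely, and genes of mitosis are transcribed late in the cell cycle through paired promoter elements, the cell cycle homology region and CCAAT boxes. The proximal tubule burns fatty acids, and the nuclear receptor PPARα, activated by fatty acids and fasting, drives genes of that pathway. Glucocorticoids, released in stress and over the day, act through their own receptor on an overlapping set of genes. The kidney also holds a circadian clock, whose activators and repressors peak at opposite phases of the day.

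Of 12735 genes kept after a filter on dim probe sets, 393 (3.09%) differed at least 2-fold between the unclamped kidneys. At day 3, 218 genes (1.71%) were higher and 175 (1.37%) lower, and 23 of the higher and 20 of the lower genes differed at least 4-fold. The shares of 3.09%, 1.71% and 1.37% are the background for the counts of list members past 2-fold below. The median difference over all genes was -0.00 on the log2 scale, the SD over genes was 0.42, and 84.5% of genes lay within 0.5 of 0. Across genes, which are not independent, the log2 levels of both arrays correlated with r = 0.979. Centring each array on its median in place of the deposited scaling moved the median difference to 0.12 and gave 302 higher and 125 lower genes, so the share of higher genes went from 55.5% to 70.7%. Under that scaling any negative difference or list median closer to 0 than 0.12 turns positive, which holds for several lists and genes described below as near 0. The unclamped day 3 array correlated more closely with the 45 min array of day 3 (r = 0.983) than with the unclamped array of day 1.

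**Figure D1:**
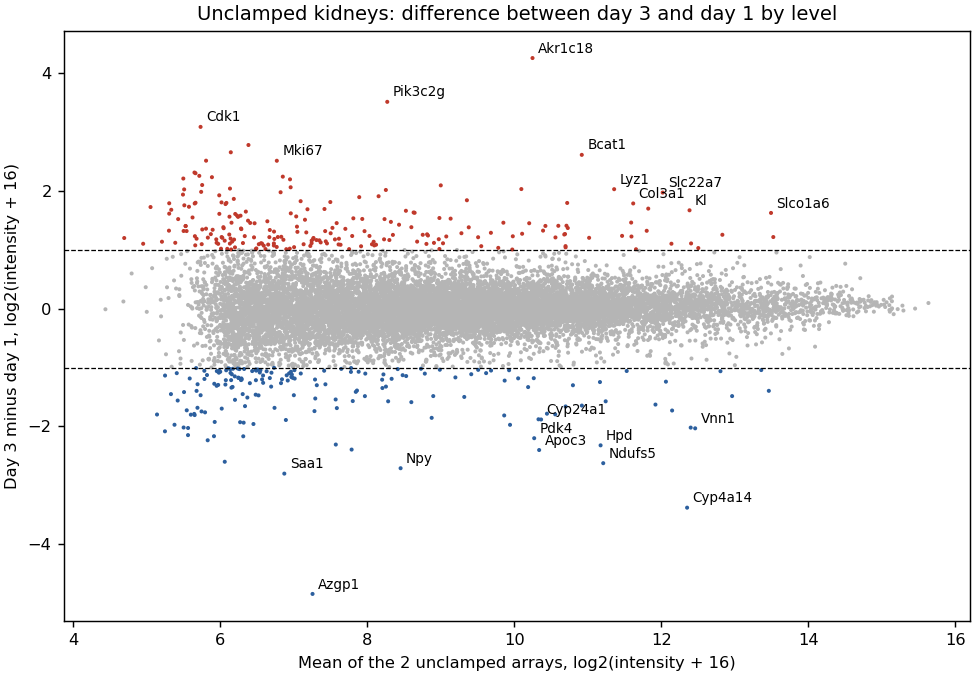
Difference between the unclamped kidneys (day 3 minus day 1, y axis) against the mean level of both arrays (x axis), both as log2(intensity + 16), 1 point a gene. Red points are the 218 genes at least 2-fold higher at day 3, blue points the 175 at least 2-fold lower, and dashed lines mark 2-fold. Akr1c18 (4.26) and Azgp1 (-4.84) lie farthest from 0.

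Akr1c18, which encodes an aldo-keto reductase that inactivates progesterone, had an intensity of 262 in the unclamped kidney of day 1 and 5296 at day 3. It stood at 3921 and 4222 after 45 min and at 1395 and 3300 after 60 min, day 1 first. The unclamped day 1 array was thus the lowest of the 6 and the day 3 array the highest, with a difference of 4.26 on the log2 scale, or 19.1-fold. Pik3c2g, which encodes a class II phosphoinositide kinase, followed the same order. It had 75.4 and 1027 in unclamped kidneys, 645 and 711 after 45 min, and 315 and 551 after 60 min (3.51, 11.4-fold). Bcat1, the cytosolic transaminase of branched-chain amino acids, stood at 766 and 4765 without a clamp, at 2567 and 4232 after 45 min and at 2381 and 1217 after 60 min (2.61). Again the day 1 array was lowest and the day 3 array highest, and its 2 other probe sets differed by 0.64 and 2.81.

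Other genes near the top were lower in the unclamped kidney of day 1 than on all 4 clamped arrays. Mfap2, a gene of elastic microfibrils, went from 12.1 to 161 between the unclamped arrays, beside 153 to 489 on the clamped arrays (2.66). Aplnr, the receptor gene for apelin, stood at 525 and 2195, beside 2047 to 4062 on the clamped arrays (2.03). Clec3b, which encodes tetranectin, had 37.0 and 235 (2.24), the latter above the clamped arrays. The day 3 value lay within their range for Cacna2d2, a calcium channel subunit gene, with 44.8 and 238 (2.06), and for Gfod1, with 18.6 and 126 (2.04). Slfn9 had 11.3 and 112 (2.23), but its other probe set differed by -0.12.

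The lowest difference was that of Azgp1, which encodes the secreted zinc-binding glycoprotein of lipid mobilisation. It had an intensity of 802 in the unclamped kidney of day 1 and 12.5 at day 3. After 45 min it had 18.0 and 11.6, and after 60 min 773 and 14.97. It was therefore bright on 2 arrays, both of day 1, and near background on the other 4, and the unclamped difference was -4.84, or 28.7-fold. Ndufs5, a subunit gene of respiratory complex I, was bright on the same arrays, with 5864 at 0 min and 3503 at 60 min of day 1, and 676 to 1033 on the other 4 (difference -2.62).

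Several of the genes lower at day 3 were highest of all 6 arrays in the unclamped kidney of day 1. Npy, the gene for neuropeptide Y, had 880 and 121 without a clamp and 101 to 224 on the clamped arrays (-2.71). Hpd, an enzyme of tyrosine breakdown, had 5147 and 1017, beside 194 to 991 (-2.32). Apoc3, an apolipoprotein gene, had 2957 and 547, beside 393 to 1610 (-2.40). Etnppl, which breaks down phosphoethanolamine, had 407 and 69.4 (-2.31), and the male-biased P450 gene Cyp2d9 had 10865 and 2666 (-2.02). Others among the 15 lowest were dimmer. Zfp688 had 148 and 11.1 (-2.60), the interleukin-1 family gene Il1f10 107 and 10.2 (-2.24), the ficolin gene Fcnb 112 and 12.4 (-2.17) and Dnajb5 152 and 21.5 (-2.17, with -0.25 for its other probe set).

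**Figure D2:**
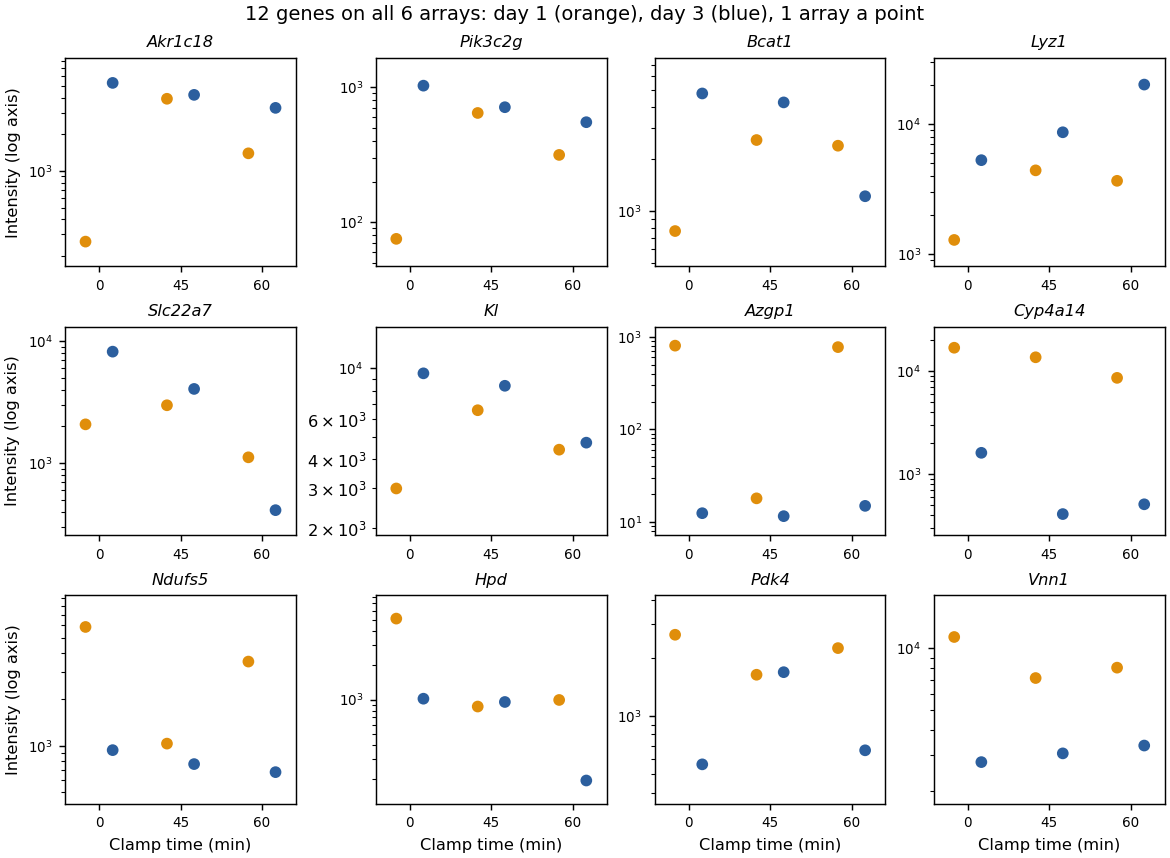
Intensity on a log axis of 12 genes on all 6 arrays, by clamp time in min, with day 1 in orange and day 3 in blue and 1 array a point. Akr1c18 and Pik3c2g are lowest in the unclamped kidney of day 1, Azgp1 and Ndufs5 are bright on the day 1 arrays of 0 and 60 min, and Cyp4a14 is lower at day 3 at each clamp time.

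The position of both unclamped arrays among the other 4 was counted for every called gene. Among the 218 genes higher at day 3, the day 1 array alone lay below all 4 clamped arrays for 146, the day 3 array alone lay above them for 28, both lay outside for 32 and neither for 12. Among the 175 lower genes the counts were 56 for the day 1 array alone, 69 for the day 3 array alone, 43 for both and 7 for neither. By these counts, most of the higher genes were low on the unclamped day 1 array rather than high on the day 3 array. The filter used the mean over all arrays, so genes dim on the unclamped day 1 array could pass on their clamped values. This favours genes that lie below the clamped arrays at day 1. With the filter on the unclamped arrays only, the 218 higher genes became 176 and the 175 lower genes 163. The positions were not recounted under that filter, so the part of the filter in these counts was not tested. Over all genes the day 1 array lay outside the range of the clamped arrays, on either side, for 43.9% and the day 3 array for 42.7%. The counts of called genes take 1 side only, so they are not directly comparable. Genes called for a large difference between these arrays are also likely to be extreme on at least 1 of them. Of the higher genes, 73 had a further probe set above the filter, and for 53 (72.6%) all of these had the same sign. Of the lower genes 27 of 32 did (84.4%), beside 48.3% of all 5966 genes with a further probe set. These 5966 genes were not chosen for a large difference, so the shares of equal sign are not directly comparable. Fewer called genes held at the calling threshold. All further probe sets passed 2-fold for 26 of the 73 higher genes and 10 of the 32 lower genes, beside 133 of the 5966.

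Mitosis genes, those that build the spindle and drive chromosome separation, were the list with the highest median among lists with more than 1 member kept. Of 21 members on the array 20 passed the filter, all 20 were higher at day 3, 16 of them at least 2-fold (background 1.71%), and the median difference was 1.50. The filter used the mean of all 6 arrays, so a member could pass on its clamped values. The order of the arrays was therefore also counted over all 21 measured members, and the unclamped day 1 array was the lowest of the 6 for 21 of 21, against 17.8% of all genes kept. It was below an intensity of 16 for 6 members. For such values the added 16 sets much of the size of the difference.

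Cdk1, the kinase that starts mitosis, had an intensity of 2.22 in the unclamped kidney of day 1 and 139 at day 3. After 45 min it had 451 and 245, and after 60 min 577 and 1373 (difference 3.09 without a clamp). The day 3 unclamped value was far above the day 1 value and below every clamped array. Birc5, the survivin gene of the chromosomal passenger complex, had 15.8 and 202 (2.78), beside 203 to 1422 on the clamped arrays. Mki67, the proliferation antigen gene, had 29.6 and 244 (2.51), beside 370 to 1609. Among the kinases, Aurka of the spindle poles had 7.41 and 118 (2.51), Plk1 had 4.98 and 81.0 (2.21) and Aurkb differed by 1.68. Ube2c and Cdc20, which act with the anaphase-promoting complex, had 41.7 and 248 (2.20) and 107 and 441 (1.89). The topoisomerase gene Top2a had 40.9 and 208 (1.98). The members under 2-fold were Cenpf (0.84), Kif11 (0.45), Bub1 (0.44) and Kif23 (0.35).

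The promoters of 3 of these genes are shown because the mitosis genes were higher together and their promoters share short sequences. They are 300 bases, from 250 before to 50 after the annotated start, 5' to 3' on the strand of the gene, from RefSeq on GRCm38.p6. Cdk1 lies at chr10:69352863-69353162 on the minus strand, Aurka at chr2:172370521-172370820 on the minus strand and Ube2c at chr2:164769679-164769978 on the plus strand. Capitals mark each match to TTTGAA, the cell cycle homology region, or to CCAAT, on either strand (TTCAAA and ATTGG), and adjoining matches on opposite strands overlap in Ube2c.
Cdk1: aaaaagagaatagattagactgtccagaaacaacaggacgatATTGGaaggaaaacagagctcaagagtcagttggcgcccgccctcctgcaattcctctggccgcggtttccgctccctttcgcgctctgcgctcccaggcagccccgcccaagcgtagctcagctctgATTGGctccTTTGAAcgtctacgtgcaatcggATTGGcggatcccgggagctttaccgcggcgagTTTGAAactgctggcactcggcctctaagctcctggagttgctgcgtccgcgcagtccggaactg
Aurka: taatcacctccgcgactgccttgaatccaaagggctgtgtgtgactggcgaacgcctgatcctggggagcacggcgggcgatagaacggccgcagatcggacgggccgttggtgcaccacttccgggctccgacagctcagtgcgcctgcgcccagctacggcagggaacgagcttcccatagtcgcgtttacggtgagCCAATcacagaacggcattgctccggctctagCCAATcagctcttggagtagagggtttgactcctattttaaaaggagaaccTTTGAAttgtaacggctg
Ube2c: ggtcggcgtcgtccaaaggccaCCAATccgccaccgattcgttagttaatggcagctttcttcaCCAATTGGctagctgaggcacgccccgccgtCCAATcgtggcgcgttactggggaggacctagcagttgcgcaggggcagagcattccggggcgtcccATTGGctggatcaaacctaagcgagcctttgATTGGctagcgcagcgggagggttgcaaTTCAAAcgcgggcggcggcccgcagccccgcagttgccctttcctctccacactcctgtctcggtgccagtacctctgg
Of 18 promoters of 17 mitosis genes in the table, TTTGAA was found in 14 (77.8%) and CCAAT in 16 (88.9%), and both in 14 (77.8%). Over all 32851 promoters of the same length, TTTGAA was in 17.9%, CCAAT in 37.4% and both in 6.95%. Of 18 promoters of DNA replication genes, TTTGAA was in 1 (5.56%) and CCAAT in 11 (61.1%). The variant TTCGAA was in 3 of the 18 mitosis promoters and in 1.56% of all. The motifs were chosen after the values were seen, and a match describes letters in the window, not binding. The promoters of Birc5 and Nusap1 held neither.

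DNA replication genes, transcribed ahead of mitosis, differed less. Of 22 members, all kept, 4 were at least 2-fold higher at day 3 (background 1.71%), 0 were lower, and the median was 0.16. The 4 were the polymerase gene Pole (5.25 and 57.4, difference 1.79), the origin licensing gene Cdc6 (17.9 and 70.0, 1.34), the helicase subunit gene Mcm6 (85.9 and 215, 1.18) and the ribonucleotide reductase gene Rrm2 (260 and 591, 1.14). The unclamped day 1 array was the lowest of the 6 for 15 of the 22, against 17.8% of all genes kept. Mcm6 was lower on both unclamped arrays than on any clamped array, where it stood between 226 and 1706.

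Genes of the extracellular matrix and fibroblasts were modestly higher at day 3. Of 24 members, all kept, 21 were above 0, 5 were at least 2-fold higher (background 1.71%) and 0 lower, with a median of 0.29. The 5 were collagen genes and partners of collagen. Col1a1 had 131 and 535 without a clamp, beside 684 to 1395 on the clamped arrays (1.91). Col3a1 had 1675 and 5818, beside 10405 to 18832 (1.79). The others were Postn (1.47), Col1a2 (1.32) and Sparc (1.11). For Col1a1, Col3a1, Postn and Col1a2 both unclamped arrays lay below all 4 clamped ones. The unclamped day 1 array was the lowest of the 6 for 18 of 24 members, against 17.8% of all genes kept.

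Macrophage and monocyte markers were higher at day 3 for 16 of 21 members kept, with a median of 0.63, and 2 were at least 2-fold higher (background 1.71%). These 2 were the lysozyme genes Lyz1, with 1283 and 5286 (2.03), and Lyz2, with 889 and 3124 (1.79). On the clamped arrays Lyz1 stood between 3664 and 20213 and Lyz2 between 2124 and 17100, so the unclamped day 1 array was the lowest for both. Aif1 (0.93), the Fc receptor genes Fcgr1 (0.81) and Fcgr3 (0.79), the mannose receptor gene Mrc1 (0.80) and Csf1r (0.70) were higher by less, and the lipopolysaccharide co-receptor gene Cd14 was lower (-0.70). The summed intensity of the 22 members on the array was 11115 at day 1 and 19982 at day 3, beside 23172 to 76181 on the clamped arrays. Most of the rise between the unclamped arrays came from Lyz1 and Lyz2. In whole tissue, more cells of a type and more RNA per cell cannot be told apart. The part of macrophages in the matrix and mitosis differences was not tested.

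Chemokine and adhesion genes were mixed, with 2 of 22 at least 2-fold higher (background 1.71%) and 1 lower (1.37%). The monocyte chemokine gene Ccl8 had 80.4 and 322 (1.81) and the endothelial selectin gene Selp differed by 1.10. Ccl28, an epithelial chemokine gene, had 8240 at day 1 and 2473 at day 3 (-1.73), beside 590 to 3857 on the clamped arrays. Neutrophil markers (9 of 14 kept, median 0.19), interferon-stimulated genes (26 of 30, 0.14) and TNF and NF-kB genes (20 of 22, -0.07) had 0 members past 2-fold. Over all genes 3.09% passed, so a count of 0 in lists this short is near the background. Tubular injury markers had a median of 0.06, and 2 of 20 passed 2-fold (background 3.09%). Havcr1, which encodes the injury molecule of proximal tubules, had 599 and 1242 (1.03), both below the 2548 to 13011 of the clamped arrays. Cd44, a hyaluronan receptor gene, differed by 1.23. Lcn2, the gene for NGAL, went the other way (1273 and 640, -0.97), as did the keratin gene Krt20 (66.7 and 49.8, -0.33).

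**Figure D3:**
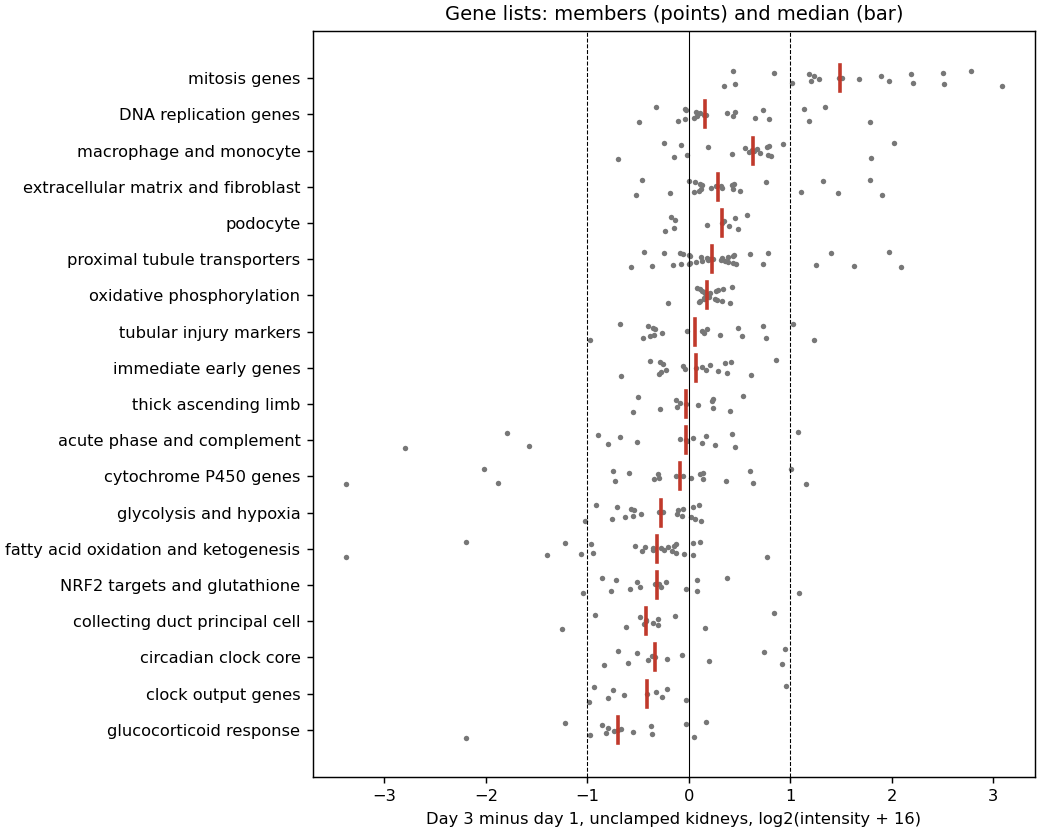
Difference between the unclamped kidneys (day 3 minus day 1, log2(intensity + 16), x axis) for the members of 19 gene lists (points, kept members only), with the list median as a red bar and dashed lines at 2-fold. Mitosis genes stand at a median of 1.50, macrophage markers at 0.63 and glucocorticoid response genes at -0.70, while most lists lie near 0.

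Genes of fatty acid oxidation and ketogenesis were lower at day 3. Of 24 members, all kept, 20 were below 0, 5 were at least 2-fold lower (background 1.37%) and 0 higher, with a median of -0.31. Cyp4a14, the fatty acid hydroxylase gene and a classic PPARα target, had 16833 at day 1 and 1603 at day 3 without a clamp. It had 13595 and 407 after 45 min and 8576 and 506 after 60 min. All 3 day 1 arrays were above all 3 day 3 arrays, and the differences were -3.38, -5.01 and -4.04 for 0, 45 and 60 min. Pdk4, the kinase gene that spares glucose by blocking pyruvate dehydrogenase, had 2631 and 560 without a clamp, 1632 and 1683 after 45 min and 2243 and 662 after 60 min (-2.20). Its unclamped arrays were the highest and the lowest of the 6.

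The peroxisomal thiolase gene Acaa1b had 18293 and 6942 (-1.40), the lipase inhibitor gene Angptl4 1411 and 596 (-1.22), and the acyl-CoA thioesterase gene Acot1 4248 and 2031 (-1.06). The receptor gene itself, Ppara, had 2174 and 1107 (-0.96), and the lipid droplet coat gene Plin2 6034 and 3122 (-0.95). The ketone body dehydrogenase gene Bdh1 was higher (0.77), and the carnitine transferase gene Cpt1a differed by -0.25. Outside the list, Vnn1, a pantetheinase gene known as a PPARα target, had 11382 and 2770 (-2.03), and was lower at day 3 after 45 min (-1.22) and 60 min (-1.27) as well. Its other probe set gave -2.09 without a clamp. Oxidative phosphorylation genes were slightly the other way, with 24 of 25 above 0, 0 past 2-fold and a median of 0.18. For 19 of the 25 the unclamped day 3 array was the highest of the 6, against 15.5% of all genes kept. This list did not contain Ndufs5.

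Glucocorticoid response genes had the lowest median of the lists, -0.70, with 13 of 15 kept members below 0 and 2 at least 2-fold lower (background 1.37%). Those 2 were Pdk4 and Angptl4, which the fatty acid list holds too. Fkbp5, a chaperone gene that damps the receptor, had 3491 and 2091 without a clamp (-0.73), 2035 and 5397 after 45 min and 2817 and 1395 after 60 min. Tsc22d3, the gene for the glucocorticoid-induced leucine zipper, had 2897 and 1662 (-0.80), and the metallothionein gene Mt1 11019 and 6241 (-0.82). Mt2 (-0.85), Per1 (-0.70) and Zbtb16 (-0.67) were lower by like amounts, and Sgk1 by less (-0.38). Dusp1 (0.17), Klf9 (0.05) and Ddit4 (-0.03) lay near 0. After 45 min the median of the list had the other sign (0.64), and after 60 min the same sign (-0.61). Promoters were also searched on both strands for a PPAR response element, AGGTCA repeated after 1 base of any kind. Among promoters of the fatty acid genes 0 of 22 had a match, and 0.0396% of all promoters did. With a share that low, 0 matches were to be awaited in 22 promoters of any genes, so nothing can be read from this count. A glucocorticoid response element, GNACA and TGTNC with 3 bases between, was in 2 of 24 promoters of 14 glucocorticoid genes (8.33%) and in 0.475% of all. Promoters of the same gene can overlap, so 2 matches can be 1 site.

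**Figure D4:**
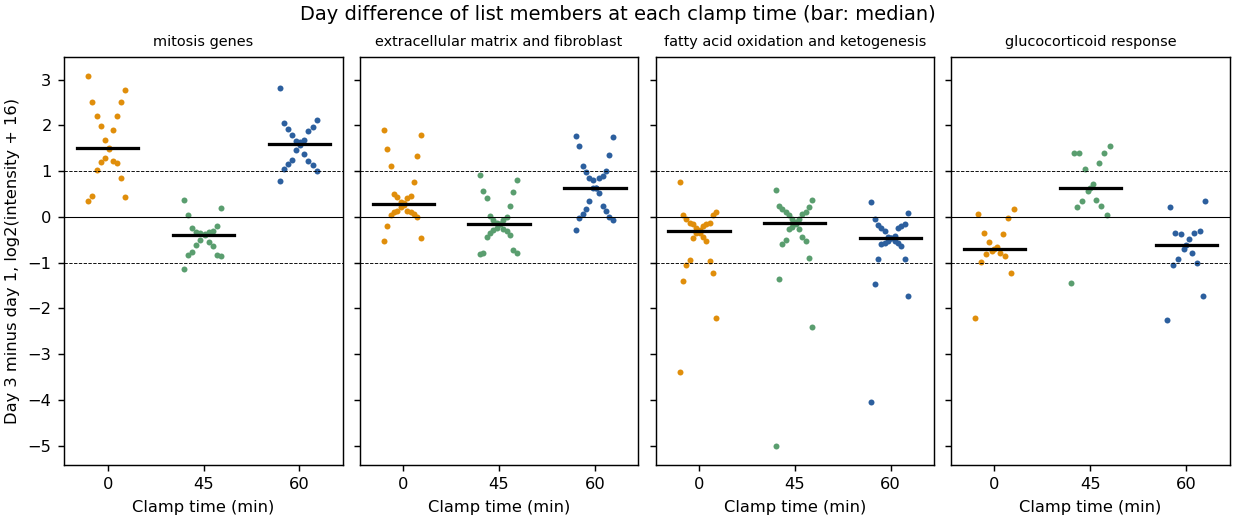
Day 3 minus day 1 (log2(intensity + 16), y axis) for kept members of 4 gene lists at each clamp time in min (x axis), with the median as a black bar and dashed lines at 2-fold, each difference from its own 2 arrays. Mitosis genes stand at medians of 1.50, -0.39 and 1.60 for 0, 45 and 60 min, and glucocorticoid response genes at -0.70, 0.64 and -0.61.

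Clock genes were read because the hour of collection is not given in the labels. On the probe set taken for each gene, no member of the core list (13 kept) or the output list (11 kept) passed 2-fold, beside 3.09% of all genes. For lists this short that is near the background. Hlf (-0.99), Nfil3 (0.96), Nr1d1 (0.95), Alas1 (-0.93) and Npas2 (0.92) lay just under 2-fold on this scale. By the ratio of their intensities Nr1d1 (2.25) and Npas2 (2.03) were past it. The medians were -0.33 and -0.41. Other probe sets of Rora, Tef and Alas1 did pass 2-fold, as given below. The activator genes Arntl (194 and 337, difference 0.75) and Npas2 (106 and 214, 0.92) were higher at day 3, and Clock lay near 0 (-0.06, with the sign turning under median centring). The repressor genes Per2 (889 and 490, -0.84), Per1 (-0.70), Cry2 (-0.60), Cry1 (-0.51) and Per3 (-0.40) were lower. Nr1d1, which represses Arntl, was higher (46.2 and 104, 0.95), whereas its relative Nr1d2 was lower (-0.22). The kinase genes Csnk1d and Csnk1e differed by 0.20 and -0.33, and Rora by -0.36. The 6 other probe sets of Rora differed by -1.21 to -0.24.

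Among the output genes, Nfil3, a repressor of D-box genes, was the only member above 0 (301 and 603, 0.96). The D-box activator genes were lower at day 3, Hlf with 2217 and 1112 (-0.99), Dbp with 2955 and 1757 (-0.74) and Tef by -0.26. The 2 other probe sets of Tef differed by -1.11 and -0.16. Alas1, the first enzyme of heme synthesis, had 6341 and 3317 (-0.93, and -2.40 for its other probe set). Nampt (-0.64), Usp2 (-0.41), Wee1 (-0.32), Ciart (-0.21) and Bhlhe40 (-0.03, likewise turning sign) lay nearer to 0. The day differences of clamped kidneys had the same sign for some clock genes and not for others. Arntl (0.51 at 45 min and 1.77 at 60 min), Npas2 (1.45 and 1.50) and Hlf (-0.41 and -1.35) kept the sign of the unclamped difference. Per2 had it at 60 min (-1.27) and not at 45 min (0.33), and Cry1 (0.54) and Csnk1e (0.36) turned at 60 min. Nr1d1, higher without a clamp, differed by -0.01 and -0.70. CACGTG is the E-box through which the clock activators act. It was in 4 of 14 promoters of 10 output genes (28.6%), in 2 of 18 of 11 core genes and in 7.15% of all. Promoters of the same gene can overlap and share a match. TTANGTAA, the D-box letters, was in 0 of 14 output promoters, in 1 of 18 core promoters and in 2.32% of all. For so few promoters these counts are near that share.

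**Figure D5:**
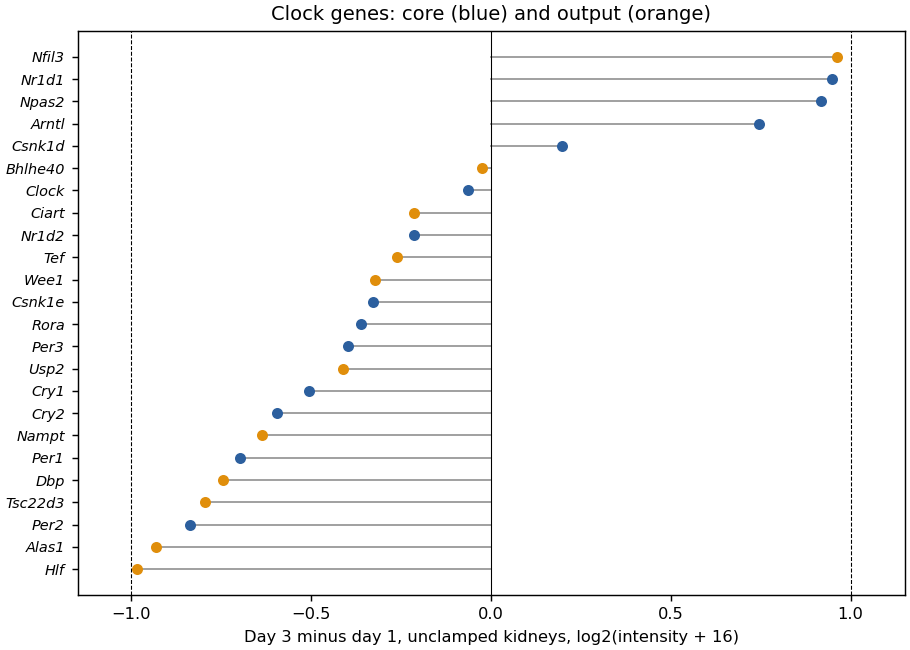
Difference between the unclamped kidneys (day 3 minus day 1, log2(intensity + 16), x axis) of clock genes, core in blue and output in orange, with dashed lines at 2-fold. Nfil3 (0.96), Nr1d1 (0.95), Npas2 (0.92) and Arntl (0.75) stand at the upper end and Hlf (-0.99) and Alas1 (-0.93) at the lower end. All lie within 2-fold on the probe set taken for each gene. Other probe sets of Alas1, Rora and Tef passed 2-fold.

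Transporters of the proximal tubule were higher at day 3 for 28 of 36 members, 5 of them at least 2-fold (background 1.71%). None was at least 2-fold lower, and the median was 0.23. The organic anion transporter gene Slc22a7 had 2079 and 8196 without a clamp, 2981 and 4056 after 45 min and 1116 and 412 after 60 min (1.97). The unclamped day 3 array was its highest. Slc22a29, of the same family, had 232 and 1041 (2.09). The organic anion transporting genes Slco1a6 and Slco1a1 had 6544 and 20225 (1.63) and 4699 and 11233 (1.25), and the phosphate transporter gene Slc34a3 had 827 and 2217 (1.40). The glucose transporter gene Slc5a2 (0.74) and the lactate transporter gene Slc5a12 (0.78) were higher by less. For 12 of the 36 (33.3%) the unclamped day 3 array was the highest of the 6, against 15.5% of all genes kept. The share was 38.5% for thick ascending limb genes (median -0.02) and 42.9% for distal convoluted and connecting tubule genes (median -0.07). It is thus not particular to these transporters. Gatm, the first enzyme of creatine synthesis and a proximal tubule gene, had 7709 and 17929 (1.22).

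Genes of vitamin D and phosphate handling, a list of 11 made after values were seen, had 3 members at least 2-fold higher and 1 lower, and a median of 0.01. Kl, the gene for the FGF23 co-receptor klotho, had 2979 and 9516 without a clamp, beside 4406 to 8393 on the clamped arrays (1.67). Cyp24a1, which breaks down active vitamin D, had 2514 and 670, beside 1138 to 1590 (-1.88). For both genes the unclamped arrays were the highest and the lowest of the 6, in opposite order. Cyp27b1, which makes active vitamin D, had 52.97 and 123 (1.01), and the receptor gene Vdr was lower (-0.61). Slc34a1 (0.39), Pth1r (0.14), S100g (-0.07) and Calb1 (0.00) lay nearer to 0.

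Of cytochrome P450 genes, 2 of 20 were at least 2-fold higher (background 1.71%) and 3 lower (1.37%), with a median of -0.09. The 3 were Cyp4a14, Cyp2d9 and Cyp24a1, and the higher ones Cyp39a1 (1.15) and Cyp27b1. Acute phase and complement genes had a median of -0.03 with 3 of 17 at least 2-fold lower (background 1.37%). Saa1, an acute phase apolipoprotein gene, had 293 and 28.3 (-2.80, and -3.09 for its other probe set), beside 52.7 to 347 on the clamped arrays. The fibrinogen genes Fga (2789 and 792, -1.80) and Fgg (4165 and 1388, -1.57) were lower, and Fgb by -0.89. C1ra, a complement protease gene, was the 1 higher member (1.07). Among glutathione and NRF2 genes (median -0.31), Gsta2 was lower (15071 and 7305, -1.04) and the heme oxygenase gene Hmox1 higher (175 and 389, 1.09).

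Collecting duct principal cell genes had a median of -0.42, with 11 of 13 below 0, and the water channel gene Aqp4 passed 2-fold (3521 and 1474, -1.25). The unclamped day 1 array was the highest of the 6 for 8 of the 13 (61.5%), against 16.9% of all genes kept. That share was 38.5% for thick ascending limb genes and 42.9% for distal convoluted and connecting tubule genes. Glycolysis and hypoxia genes had a median of -0.27, with the prolyl hydroxylase gene Egln3 the 1 member past 2-fold (471 and 223, -1.03). Podocyte genes had a median of 0.33, those of the thick ascending limb -0.02 and of the distal convoluted and connecting tubule -0.07. Immediate early genes (0.08), heat shock proteins (0.00), ER stress genes (-0.13) and ribosomal proteins (-0.01) had 0 members past 2-fold. This too is near the background of 3.09% for lists this short.

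Markers of neighbouring tissue are given beside these lists. The summed intensity of the perirenal fat list was 47259 at day 1 and 49589 at day 3, with the adipocyte gene Adipoq at 1581 and 1529. Those of the adrenal cortex list were 8356 and 9047, nearly all from Fdx1, with the defining steroid enzyme genes Cyp11b1 at 27.1 and 10.3 and Cyp11b2 at 8.41 and 4.09. The skeletal muscle sums were 2452 and 2387, mostly from Pvalb, and the pancreas sums 3208 and 6838, nearly all from Cela1. The liver sum was 2471 and 858, of which Apoh made 1932 and 480, with albumin (Alb) at 230 and 125. Alb, Apoh, Hpd and the fibrinogen genes were thus all lower at day 3, and the part of liver RNA in this was not tested.

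The day differences of clamped kidneys, from arrays of their own, were set beside these. At 45 min 3.21% of genes and at 60 min 4.11% passed 2-fold between the days. Across genes the unclamped difference correlated with that at 45 min with r = 0.01 and with that at 60 min with r = 0.36, and those at 45 and 60 min with r = 0.12. Of the 218 genes higher without a clamp, 15 (6.88%) were also at least 2-fold higher at 45 min, which is 10% of the 150 higher there, and 21 were at least 2-fold lower there. At 60 min 79 (36.2%) were higher, 20.6% of the 384 higher there, and 3 were lower. Of the 175 lower genes, 22 (12.6%) were lower at 45 min, 8.49% of 259, and 35 (20%) at 60 min, 25.2% of 139. The background for these counts is 1.18% of genes higher and 2.03% lower at 45 min, and 3.02% higher and 1.09% lower at 60 min.

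The median day difference of mitosis genes was 1.50 without a clamp, -0.39 at 45 min and 1.60 at 60 min, where 18 of 20 were at least 2-fold higher. The beta-actin ratio moved with the days in a like order, from 1.12 to 0.77 without a clamp, from 1.10 to 1.03 at 45 min and from 1.08 to 0.49 at 60 min. Its part in these differences was not tested. DNA replication genes differed by 0.16, -1.11 and -0.06. Matrix genes differed by 0.29, -0.16 and 0.64, macrophage markers by 0.63, 0.38 and 1.73, and fatty acid oxidation genes by -0.31, -0.14 and -0.46. Only 2 genes were at least 2-fold higher at day 3 for all 3 clamp times, Ccl8 and Lyz2. Lower for all 3 were 11 genes. They were Cyp4a14, Vnn1, the membrane protein gene Reep6, the bile and drug export pump gene Abcc2, the aldehyde dehydrogenase gene Aldh1a7, the fibrinogen genes Fga and Fgg, the corticosteroid-binding globulin gene Serpina6, Flrt1, Fam25c and Gm10804. Reep6 had 2568 and 735 without a clamp (-1.78), and its day difference was -1.55 at 45 min and -1.36 at 60 min. Fga had 3067 and 1319 at 45 min and 7062 and 1333 at 60 min, so that its 3 day 3 arrays were all below its 3 day 1 arrays.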

How the data were processed

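RNA of 6 mouse kidney samples was read on 1 Affymetrix array each. The authors deposited an intensity (linear, not log) for every probe set. Per the submitters' processing notes the tool was Affymetrix Expression Console. Its version and how it summarised probes were not given in the sources used here. The mean of each array after trimming 2% at each end was 500.003, so arrays had been brought to a common scale, on which a shift in many bright genes moves the rest.

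The array holds 45101 probe sets. The platform annotation gave 1 symbol for 34945, several for 932 and none for 9160, and 64 were controls. Those with 1 symbol were used, 34741 matched the reference gene table, and 0 symbols changed. Where several probe sets named 1 of the 18193 genes, that of the highest average log2(intensity + 16) was taken. Genes at or above the 40th percentile of that mean over 6 arrays (log2 6.01) were kept, 12735 in all. Folds are 2 to the power of the difference on that scale.

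The genes named were the 15 highest and 15 lowest among those at an intensity of 100 or above on the brighter unclamped array, predicted genes passed over, up to 6 members of each list by size of difference, and the clock genes. Genes named beside these (further members of lists, genes shared by all clamp times, vitamin D and immunoglobulin genes) were chosen after their values were seen. The members and the 53 lists (935 symbols, 825 on the array, 727 kept) were chosen with earlier results of these data known. Alternatives were quantile normalization, median centring, a pseudocount of 1 or 64, other filters and the mean of probe sets. The calling step was tested on simulated data. Python 3.11.15, numpy 2.4.6 and pandas 2.3.3 were used. The number of arrays limits the precision.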

Additional observations from a re-analysis of the deposited data

Results flagged for a closer look

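Some genes past 2-fold between the unclamped kidneys were past 2-fold the other way between the days at another clamp time, each from 1 pair of arrays, and these differences were not tested. Genes of DNA replication were higher at day 3 without a clamp and lower at day 3 after 45 min: Pole (1.79 and -2.04), Cdc6 (1.34 and -1.19) and Mcm6 (1.18 and -1.75). Their 45 min arrays of day 1 were bright, with 799 for Mcm6 beside 85.9 in the unclamped kidney of day 1. Slfn9 (2.23 and -2.32) and the transporter gene Slc22a29 (2.09 and -1.13) had the same pair of signs.

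In the other direction, Ccl28 was lower at day 3 without a clamp (-1.73) and higher after 45 min (2.68), from 590 and 3857. Batf3, a transcription factor gene of dendritic cells, had 140 and 24.7 without a clamp (-1.94) and 24.8 and 147 after 45 min (2.00). Apoh, a liver-type plasma protein gene, differed by -1.97 and 1.09. At 60 min, Slc22a7 went from 1.97 without a clamp to -1.40, and Fcnb from -2.17 to 1.27. Fcnb, Batf3 and Slfn9 were dim, at most 161 on any of the 6 arrays.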

How the results depend on the processing

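Of 74 named genes past 2-fold, 1 (Slfn9) changed sign under any alternative of scaling, pseudocount, filter or probe set, and 19 dropped under 2-fold in at least 1. Of the named genes under 2-fold, 17 passed it in at least 1 alternative. A filter leaves the difference of a kept gene as it is, and genes that a filter removed were not counted. A pseudocount can turn a sign only where it changes the probe set taken. The stable signs therefore speak mainly to scaling and the mean of probe sets. Of 476 list medians under the alternatives, 460 moved by at most 0.25 and did not turn sign, medians close to 0 aside. Counts of 218 higher and 175 lower genes became 106 and 74 with a pseudocount of 64, 549 and 734 with no filter on dim genes, and 114 and 64 with a filter at the 60th percentile. The other 6 alternatives gave 151 to 302 higher and 124 to 258 lower. The mitosis median of 1.50 became 1.00 with a pseudocount of 64, 1.93 at the 60th percentile, 1.23 with the mean of probe sets and 1.93 where the brighter unclamped array had to reach 100 (added after the data were seen). Its 16 members past 2-fold became 10 with a pseudocount of 64 and 10 at the 60th percentile. They became 12 with the filter on the 2 unclamped arrays (median 1.38) and 12 with the brighter array at 100. The filters changed which members were kept, not their values. Medians of thin lists moved or turned. Adrenal cortex went from -0.14 to 0.00507 (quantile normalization) and 0.13 (60th percentile). With no filter, T and NK cell went from 0.33 to -0.016, B and plasma cell from -0.24 to 0.12, skeletal muscle from 0.19 to -0.46 and pancreas from 1.10 to 0.29. MHC class II went to 0.46 and liver to -1.97 at the 60th percentile. With the mean of probe sets, liver went to -0.81, T and NK cell to 0.76 and red blood cell from 0.08 to 0.98, and liver was -0.81 too with the brighter array at 100. Slfn9 went from 2.23 to -0.15 with a pseudocount of 1, where another of its probe sets was taken. Beyond construction, the cause was not tested. No paired analysis was possible because each group had 1 array, and for the same reason no array could be left out. Dim values, 18.4% to 20.6% of probe sets below 16, limit what can be read of folds.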

Other observations

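Immunoglobulin genes, a list of 6 made after values were seen, were brighter on 3 arrays than on the others. The IgA heavy chain gene Igha had 13435 and 10885 in unclamped kidneys of day 1 and day 3, 369 and 12185 after 45 min, and 2395 and 1587 after 60 min. The joining chain gene Jchain had 4182 and 2534, 137 and 2989, and 592 and 379 in the same order, and the light chain gene Igkv8-30 had 2936 and 918, 86.2 and 2472, and 437 and 269. The unclamped arrays were thus both high, with Igkv8-30 past 2-fold between them (-1.66) and Jchain (-0.72) and Igha (-0.30) under it.

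Iron and heme genes went in both directions. Alas2, the heme synthesis gene of red cell precursors, had 136 and 597 without a clamp (2.02) and 73.9 to 262 on the clamped arrays. Alas1 was lower (-0.93, and -2.40 for its other probe set). Hmox1 (1.09) and the iron exporter gene Slc40a1 (2347 and 4655, 0.98) were higher, and the anion exchanger gene Slc4a1 had 766 and 811. The isoprenoid gene Idi1 had 2258 and 4559 (1.01), the 1 of 17 cholesterol synthesis genes past 2-fold, and 12 of the 17 were above 0 (median 0.12).

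Of sex-linked genes, Xist had 109 and 43.8 on the unclamped arrays and 32.1 to 63.6 on the clamped arrays. The Y-linked genes Uty (471 and 808) and Eif2s3y (1069 and 1665) were lower on the unclamped day 1 array than on the other 5.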
